A study of Mus musculus with 4 samples.

Results

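The CC chemokine genes Ccl22, Ccl17, Ccl24, Ccl6 and Ccl9 and the receptor gene Ccr4 were followed through the immune cells of MC38 tumours. They were taken by symbol from the gene tables, where all 6 of 6 were found among 22620 genes. MC38 is a mouse colon adenocarcinoma line. Single-cell 3' RNA libraries had been made from the CD45-positive cells of such tumours, 2 libraries from wild-type (WT) mice and 2 from Park2-/- mice (KO), which lack the ubiquitin ligase Parkin. The tumours had been digested with enzymes and the leukocytes enriched on magnetic beads, and the series title names antigen presentation by macrophages as the question. Age, sex, the cells' origin by animal and the deleted exon are not given in the sources used here, and nothing says whether a library pools animals, so the p-values are about variation among libraries, which may be technical.

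CC chemokines are small secreted proteins that direct the migration of leukocytes through G protein-coupled receptors. CCL17 and CCL22 are the ligands of CCR4, a receptor of regulatory and type 2 helper T cells, and dendritic cells are a known source of both. CCL24, also called eotaxin-2, acts through CCR3 and is made by alternatively activated macrophages, while mouse CCL6 and CCL9 are myeloid chemokines that act through CCR1.

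The libraries held 9239 and 9369 barcodes in WT 1 and WT 2 and 18324 and 10344 in KO 1 and KO 2, with 94213071 to 130466357 UMIs each. KO 1 stood apart in depth, with a median of 6052 UMIs per kept cell against 8308 to 12133 in the other libraries. Any pair of libraries shared 22 to 51 cell barcodes. Ptprc, which encodes CD45, had a UMI in 84.1% to 87.8% of kept cells. Cells were assigned to classes by the number of marker genes with a UMI, never by one of the 6 genes, and 21.6% to 26.8% of cells passed no gate. A level below is a gene's share of the summed UMIs of a gate, scaled to CPM, always in the order WT 1, WT 2, KO 1, KO 2. The macrophage gate held 5213, 5864, 9710 and 5407 cells, with a median of 9 of its 11 markers detected. The monocyte gate held 357, 237, 583 and 368 cells. The gate for type 2 conventional dendritic cells (cDC2) held 147, 104, 101 and 52 cells. The migratory dendritic gate, for cells with Ccr7, Fscn1 and other genes of dendritic maturation, held 87, 96, 73 and 48. T cells numbered 218, 328, 1575 and 752.

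The 4 chemokine genes that lie in neighbouring pairs are shown with the bases before their starts, since both members of each pair are described side by side below (from RefSeq, GRCm38.p6, on the strand of the gene, where 5 of the 6 genes were matched). Ccl22 lies at chr8:94745590-94751699 and Ccl17 at chr8:94810453-94812036, both on the plus strand and 58753 bases apart. Ccl9 at chr11:83572919-83578636 and Ccl6 at chr11:83587882-83593087 lie on the minus strand, 9245 bases apart. Capitals in Ccl22 mark matches, on either strand, to GGG and CC with any 5 bases between them, an NF-kB type motif that 45.8% of 32851 promoter windows hold. Capitals in Ccl17 mark TTC and GAA with any 4 bases between them, a STAT6 type motif held by 5.85% of windows. Capitals in Ccl9 and Ccl6 mark the longest stretch that these windows share, 13 bases that begin 14 bases before the start of Ccl9 and 55 before that of Ccl6 and occur in 3 of 32851 windows. The windows are chr8:94745434-94745589, chr8:94810203-94810452, chr11:83578637-83578886 and chr11:83593088-83593337.
Ccl22: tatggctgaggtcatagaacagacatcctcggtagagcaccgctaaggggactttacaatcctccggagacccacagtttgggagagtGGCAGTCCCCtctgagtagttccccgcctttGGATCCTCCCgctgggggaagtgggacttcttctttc
Ccl17: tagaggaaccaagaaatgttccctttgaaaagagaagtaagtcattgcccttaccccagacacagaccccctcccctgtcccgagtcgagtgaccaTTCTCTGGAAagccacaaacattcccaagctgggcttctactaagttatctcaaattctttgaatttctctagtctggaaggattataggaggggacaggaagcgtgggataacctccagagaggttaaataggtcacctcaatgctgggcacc
Ccl9: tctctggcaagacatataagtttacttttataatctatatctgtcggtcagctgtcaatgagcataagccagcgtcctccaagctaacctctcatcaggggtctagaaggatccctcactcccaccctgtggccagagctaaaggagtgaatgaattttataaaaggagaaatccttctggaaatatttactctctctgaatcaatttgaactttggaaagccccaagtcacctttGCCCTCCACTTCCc
Ccl6: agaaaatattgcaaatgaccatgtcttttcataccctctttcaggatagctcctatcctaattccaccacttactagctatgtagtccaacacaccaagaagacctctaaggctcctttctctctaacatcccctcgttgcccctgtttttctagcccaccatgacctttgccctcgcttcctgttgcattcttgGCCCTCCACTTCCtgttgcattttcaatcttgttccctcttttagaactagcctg
The other pairs among these windows shared at most 7 to 9 bases. These matches describe letters in a window, and the libraries hold no measure of binding there. Ccl24 (chr5:135569937-135573049) and Ccr4 (chr9:114490316-114504916), both on the minus strand, are named by position only.

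The 6 genes fell into 4 patterns across the gates. Ccl22 was a gene of the migratory dendritic gate, Ccl17 of both dendritic gates, Ccl6, Ccl9 and Ccl24 of myeloid cells, and Ccr4 of T cells. Over 24 cases of a gene in a library, the gate with the highest level was the gene's usual one in 20. The usual gate was taken from these same cases, so the count is only a description. For Ccl24 the highest gate was macrophages in WT 1, neutrophils in WT 2, on 8 UMIs, and monocytes in KO 1 and KO 2.

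**Figure D1:**
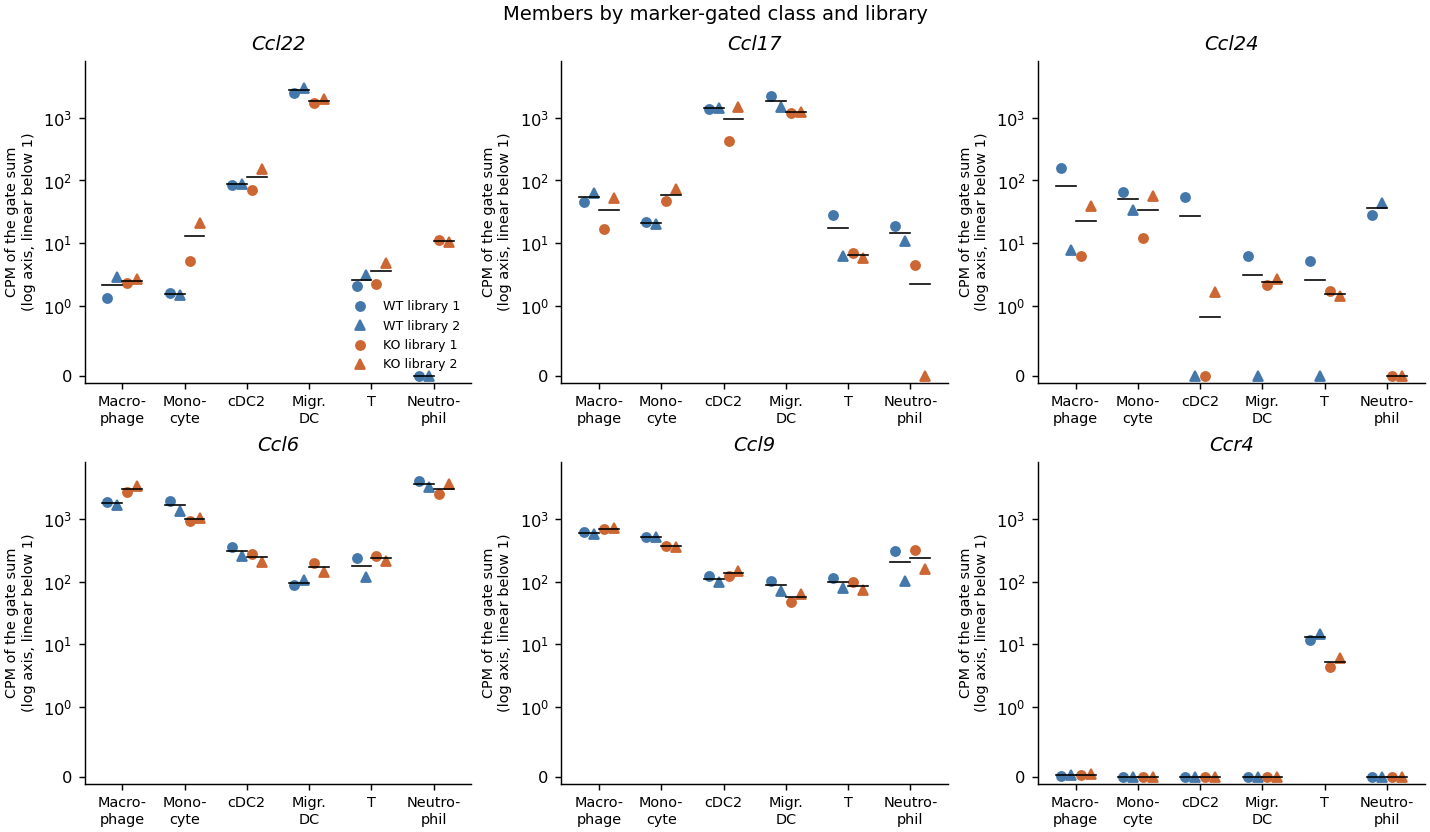
Levels of the 6 genes in 6 exclusive gates, as CPM of the gate sum on a log axis that is linear below 1. Each point is a library (WT blue, KO orange, circle for library 1, triangle for library 2) and black lines are the means of 2 libraries. Ccl22 peaks in the migratory dendritic gate at 1721 to 2945 CPM, Ccl6 in neutrophils and macrophages, and Ccr4 in T cells.

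Ccl22 was measured at 2510, 2945, 1721 and 1993 CPM in the migratory dendritic gate. Both WT libraries lay above both KO libraries, and the means were 2727 ± 307 in WT and 1857 ± 193 in KO (SD, n = 2 each), a ratio of 0.681. The log2 change of KO against WT was -0.58 ± 0.18 (SE), which did not pass the quasi-likelihood test of edgeR after Benjamini-Hochberg adjustment over all genes of the gate (adjusted p = 0.146, unadjusted p = 0.00511). Without WT 1 the change was -0.74 with an adjusted p of 0.000397, but any fit that leaves out a library takes the spread from the pair of the other genotype and assumes that the lone library varies alike. The share of cells with a Ccl22 UMI was 83.9%, 92.7%, 84.9% and 85.4%, and 74.5%, 85.5%, 79.2% and 83.9% after thinning each cell to 2000 UMIs. Thinning left out cells under 2000 UMIs and gated the thinned counts anew, so a thinned gate need not hold the same cells. The T cell gate of WT 1, for example, then held 164 cells. Macrophages, which carry little Ccl22, gave 0.2%, 0.344%, 0.198% and 0.238% at the same depth and 1.15%, 2.27%, 1.1% and 2.33% unthinned, with median depths of 12217, 13639, 9406.5 and 14049 UMIs against 6549, 6489, 5646 and 7236.5 in the migratory dendritic gate. That gate made up 1.0%, 1.09%, 0.424% and 0.505% of kept cells and held 67.4%, 65.0%, 39.9% and 43.9% of a library's Ccl22 UMIs. A further 22.7%, 23.0%, 42.7% and 32.8% lay in cells that passed no gate or those of more than 1 lineage. Fewer UMIs of a gene in a whole library can come from fewer cells of a type or from less RNA per cell, and the level within a gate separates these only as far as the gate holds the same cells.

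The next highest level of Ccl22 was in the cDC2 gate, at 86.1, 88.8, 69.9 and 153 CPM, a range that did not reach that of migratory dendritic cells. KO 2 was highest and KO 1 lowest, so the groups overlapped (log2 change 0.30 ± 0.26, edgeR adjusted p = 0.68). Leaving out KO 2 turned the change to -0.26, and leaving out KO 1 gave 0.77 with an adjusted p of 0.0372. The difference between the dendritic gates in the change of Ccl22 was 0.83 ± 0.33 on the log2 scale, cDC2 minus migratory, which did not pass the test of the difference (edgeR, adjusted p = 0.667), a test that 0.042% of genes passed. In macrophages Ccl22 was at 1.33, 2.94, 2.31 and 2.74 CPM, with an overlap of the groups and a log2 change of 0.35 ± 0.39 (edgeR adjusted p = 0.64) that was -0.12 without WT 1. Of the macrophage subsets, 8 could be tested for Ccl22 and 0 of 8 passed, where 2.93% to 9.79% of all genes did. In monocytes it rested on 5, 3, 16 and 55 UMIs, or 1.63, 1.51, 5.21 and 21.3 CPM, and both KO libraries were above both WT libraries. That log2 change was 3.04 ± 0.80 (edgeR adjusted p = 0.101) and passed without KO 1 (3.73, adjusted p = 0.0223) and with DESeq2 (3.09, adjusted p = 0.0242).

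Ccl17, the other CCR4 ligand, was at 2186, 1501, 1206 and 1241 CPM in migratory dendritic cells. WT 1 was highest, WT 2 next, and the groups did not overlap. Means were 1843 ± 484 in WT and 1223 ± 24.8 in KO (SD, n = 2 each), with a log2 change of -0.60 ± 0.18 (edgeR adjusted p = 0.126, unadjusted p = 0.00389). Without WT 2 the change was -0.79 with an adjusted p of 0.000239, on the spread of the 2 KO libraries alone, and in cells thinned to 2000 UMIs it was -1.33 with an adjusted p of 1.08e-05. A UMI of Ccl17 was seen in 55.2%, 68.8%, 53.4% and 62.5% of the cells, or 40.0%, 56.4%, 39.6% and 38.7% when thinned, and in 1.83%, 1.57%, 1.2% and 1.05% of thinned T cells (2.75%, 3.05%, 1.46% and 1.99% unthinned, at medians of 3051.5, 3251, 3011 and 3518 UMIs). Nearly every migratory dendritic cell with Ccl17 also had Ccl22: 97.9%, 98.5%, 100% and 100%, against 66.7%, 80%, 67.6% and 61.1% of those with no Ccl17 UMI.

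In the cDC2 gate Ccl17 was at 1382, 1443, 418 and 1509 CPM, overlapping the range of migratory dendritic cells. KO 1 alone was low there, and KO 2 was the highest of the 4. The log2 change of -0.59 ± 0.75 did not pass (edgeR adjusted p = 0.829), became 0.05 without KO 1, and was -1.70 without KO 2, past the threshold with a spread then taken from the 2 WT libraries alone. In the same gate Mgl2, a lectin gene of cDC2 and alternatively activated macrophages, was at 1789, 1167, 650 and 1161 CPM, lowest in KO 1 as well. The 11 macrophage markers summed to 752, 805, 1504 and 1085 CPM in these cells, and their part in the result was not tested. Of cDC2 with Ccl17, 31.4%, 32.8%, 29.4% and 37.5% had a Ccl22 UMI.

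Of the 4 genes tested in each dendritic gate, 0 passed in cDC2 and 0 in migratory dendritic cells, beside 3.42% and 1.51% of all genes tested there. At an unadjusted p under 0.05, Ccl22, Ccl17, Ccl6 and Ccl9 met the threshold in the migratory gate and 0 of 4 did in cDC2, beside 12.3% and 15.3% of all genes at that threshold. DESeq2 also called 0.

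**Figure D2:**
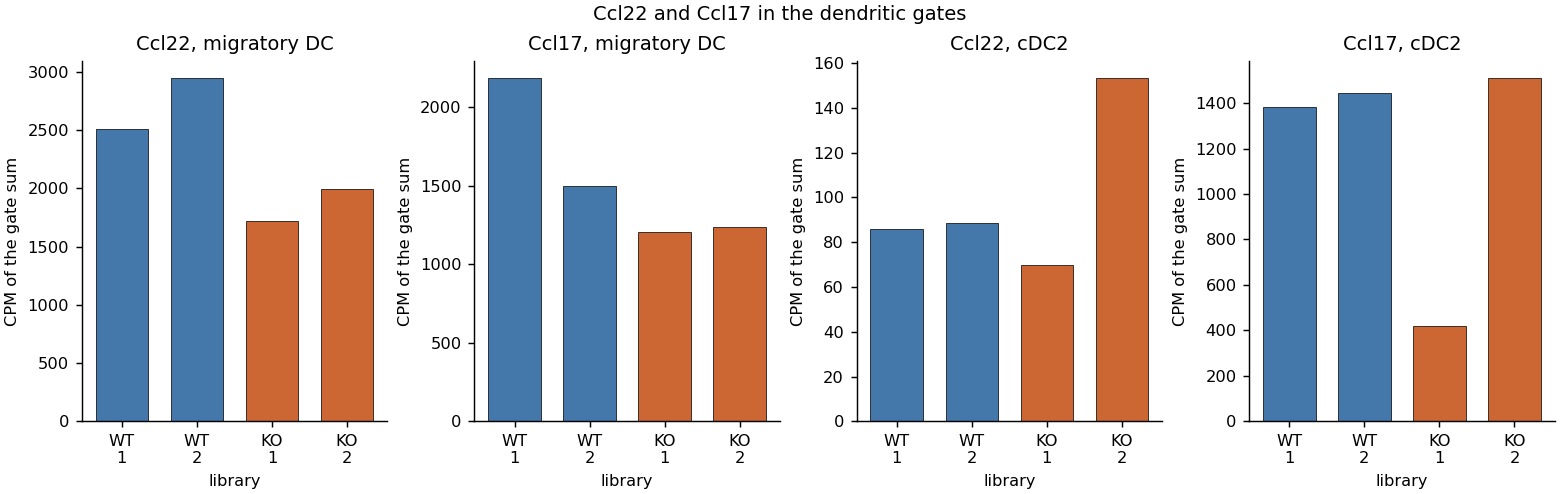
Ccl22 and Ccl17 in the migratory dendritic and cDC2 gates, one bar per library (WT blue, KO orange), as CPM of the gate sum from 0. WT bars exceed KO bars in the migratory gate, where Ccl22 ran from 1721 to 2945 CPM, and KO 1 alone is low for Ccl17 in cDC2 at 418 CPM.

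Most Ccl17 UMIs of a library lay outside the dendritic gates. Macrophages held 27.1%, 43.0%, 37.7% and 45.3%, ungated cells and those of more than 1 lineage 39.1%, 34.6%, 37.1% and 36.9%, cDC2 20.2%, 13.4%, 7.37% and 9.6%, and migratory dendritic cells 12.7%, 8.24%, 12.5% and 4.98%. The macrophage level of 44.7, 64.3, 16.8 and 51.6 CPM was the sum of few cells: 55, 109, 39 and 95 macrophages with at least 10 Ccl17 UMIs held 88.6%, 87.7%, 73.8% and 85.5% of it. KO 1 was the lowest library and the groups overlapped (log2 change -0.56 ± 0.60, edgeR adjusted p = 0.634). The change was 0.04 without KO 1 and -1.57 without KO 2, the latter past the threshold with a spread taken from the 2 WT libraries alone.

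The macrophages rich in Ccl17 differed from the rest in other genes, as a description of cells picked by their Ccl17. Mgl2 had a UMI in 98.2%, 95.4%, 82.1% and 89.5% of them against 46.0%, 42.1%, 17.4% and 40.4% of other macrophages, and Adgre1, which encodes F4/80, in 18.2%, 37.6%, 25.6% and 23.2% against 72.3%, 70.9%, 67.7% and 67.7%. Ccr2, a receptor of recruited monocytes, was seen in 96.4%, 89.0%, 69.2% and 85.3% against 69.7%, 64.1%, 44.7% and 50.1%. Plac8, another monocyte gate marker, went both ways, in 3.64%, 9.17%, 23.1% and 24.2% against 13.4%, 7.7%, 19.6% and 23.4%. C1qa, a macrophage gate marker, was alike, in 96.4%, 99.1%, 92.3% and 95.8% against 94.2%, 96.6%, 95.4% and 94.4%. Clec10a was seen in more of the cells rich in Ccl17 in each library, and Mertk in fewer. Cells that also passed a dendritic gate were left out of the macrophage gate, which by itself limits markers of the dendritic gates here. Such genes were rare in both groups of macrophages, though most were seen in a larger share of the cells rich in Ccl17. Zbtb46 had a UMI in 3.64%, 4.59%, 2.56% and 3.16% of them against 0.698%, 0.487%, 0.248% and 0.377% of other macrophages, and Ccr7 in 3.64%, 1.83%, 10.3% and 6.32% against 0.62%, 0.487%, 1.07% and 1.11%. Flt3 was seen in 1.82%, 0.917%, 0% and 1.05% against 0.31%, 0.174%, 0.155% and 0.151%, and Cd209a in 0%, 3.67%, 5.13% and 1.05% against 0.737%, 0.539%, 0.217% and 0.358%. The part of dendritic cells within the macrophage gate in its Ccl17 level was not tested. When macrophages were split by Mgl2 with no UMI of Adgre1 or Mertk, a split chosen after these values were seen, 460, 556, 475 and 530 cells met it, 8.82%, 9.48%, 4.89% and 9.8% of the gate. They held 65.2%, 60.8%, 62.8% and 64.1% of the gate's Ccl17, at 337, 420, 208 and 329 CPM against 17.1, 27.8, 6.56 and 20.6 in the rest. In the same cells Ccl6 was at 1712, 1620, 1534 and 2155 CPM against 1875, 1663, 2709 and 3417 in other macrophages, and Ccl9 at 488, 515, 341 and 411 against 624, 590, 711 and 739. In KO 1 these cells were about as many as in the other libraries, but a smaller share of a larger gate, and their Ccl17 level was lowest there.

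**Figure D3:**
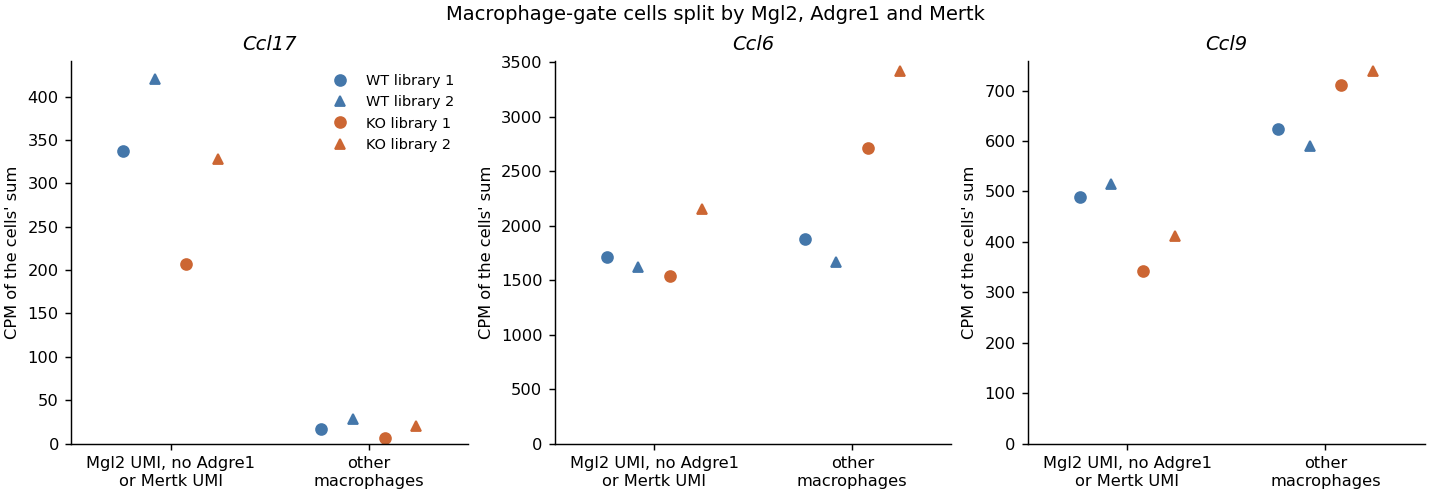
Ccl17, Ccl6 and Ccl9 in macrophages with a UMI of Mgl2 and none of Adgre1 or Mertk, and in all other macrophages, as CPM of the cells' sum for each library (WT blue, KO orange). Ccl17 is at 208 to 420 CPM in the former and 6.56 to 27.8 in the latter, while both WT and KO levels of Ccl9 are higher in the latter.

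In monocytes Ccl17 passed, higher in KO. Its levels were 22.1, 20.2, 46.3 and 73.1 CPM, from 68, 40, 142 and 189 UMIs, and both KO libraries lay above both WT libraries. The log2 change was 1.52 ± 0.23 (edgeR adjusted p = 0.0112). It lost the threshold without WT 1 (1.56, adjusted p = 0.0903), in thinned cells (0.76, adjusted p = 0.688) and with 1 more marker required of every gate (0.96, adjusted p = 0.601). The test of macrophage minus monocyte gave -2.10 ± 0.98 for Ccl17 and did not pass (edgeR adjusted p = 0.716). Of the 9 macrophage subsets, 0 were higher and 1 was lower for Ccl17, beside 4.04% and 2.24% of all gene tests there. That was the subset with Lyve1, Cd163 or Cd209f, genes of resident macrophages, at 13.4, 6.15, 2.33 and 1.67 CPM. WT 1 was highest there, but 1 of its cells held 67 of its 88 Ccl17 UMIs, and the KO libraries had 2 and 3 UMIs. The log2 change of -2.36 ± 0.60 passed (edgeR adjusted p = 0.0309, with 0.759% of genes called lower) and did not without WT 1 (-1.64, adjusted p = 0.864), without KO 1 (-2.53, adjusted p = 0.0517), without KO 2 (-2.02, adjusted p = 0.446) or with cells of more than 1 lineage kept (-2.68, adjusted p = 0.0791). Ccl17 in T cells, at 28.4, 6.27, 7.05 and 5.76 CPM, was high in WT 1, where 1 cell held 22 of 27 UMIs (log2 change -1.09 ± 0.59, edgeR adjusted p = 0.54). It was 0.18 without WT 1 and -1.95 without WT 2. Over 11 alternatives it ran from -2.99 to 0.18, and 2 of these passed.

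Ccl24 was a gene of few, strongly positive macrophages and monocytes. Macrophages had 157, 7.79, 6.17 and 38.9 CPM, so WT 1 was above every other library, WT 2 and KO 1 were alike, and the groups overlapped. The log2 change of -1.73 ± 2.06 did not pass (edgeR adjusted p = 0.69) and was 1.62 without WT 1. A UMI was seen in 17.0%, 3.55%, 2.38% and 7.12% of macrophages (9.08%, 0.93%, 0.794% and 2.18% thinned) and in 2.44%, 0%, 0.0798% and 0.175% of thinned T cells (2.29%, 0%, 0.317% and 0.532% unthinned). The 196, 8, 8 and 53 macrophages with at least 10 Ccl24 UMIs held 84.4%, 44.8%, 39.7% and 80.5% of the gate's Ccl24.

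WT 1 had the highest Ccl24 in each of the 9 subsets. Ccl24 was highest, by the median of 4 libraries, in macrophages with Chil3 and Fn1, at 314, 20.4, 19.98 and 88.4 CPM. Chil3 encodes a chitinase-like protein of alternative activation, and Fn1 encodes fibronectin. In the Lyve1, Cd163 or Cd209f subset it was 292, 22.8, 12.8 and 13.3 CPM, but this subset held only 18.4%, 11.9%, 1.78% and 0.754% of the macrophage Ccl24 UMIs. Chil3 had a UMI in 57.7%, 25%, 37.5% and 47.2% of the macrophages with at least 10 Ccl24 UMIs, against 23.0%, 11.9%, 9.71% and 19.2% of other macrophages. In WT 2 and KO 1 these were 8 cells each. Among other genes looked at, Ccr2 was also seen in more of them in each library, and Lyve1 and C1qa in fewer. Plac8 went both ways, in 11.7%, 25%, 12.5% and 35.8% against 13.3%, 7.7%, 19.7% and 23.3%. Adgre1 was in a smaller share only in KO 2 and Mertk only in WT 2, while F13a1 was in a larger share only in WT 2. Folr2 was in 37.8%, 37.5%, 0% and 24.5% against 39.5%, 30.4%, 28.8% and 31.4%. Fn1 and Arg1 were in a smaller share in WT 2 and a larger one elsewhere. Cd163 was in a larger share only in WT 1. Of the 9 subsets, 0 passed for Ccl24, beside 2.07% to 9.79% of all genes. In monocytes it was at 66.7, 33.2, 12.1 and 56.4 CPM (log2 change -0.57 ± 0.96, edgeR adjusted p = 0.839), with the groups overlapping and a change of 0.01 without WT 1 and 0.16 without KO 1. In both gates the 2 libraries of a genotype differed from each other by more than 1.5 times.

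**Figure D4:**
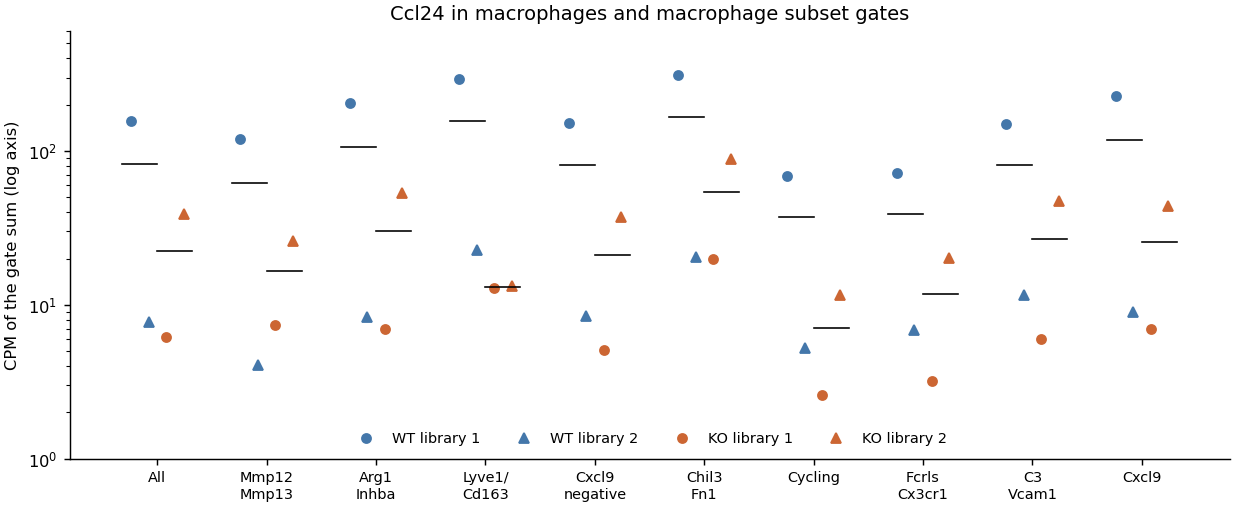
Ccl24 in all macrophages and in 9 subset gates, as CPM of the gate sum on a log axis, by library (WT blue, KO orange, circle for library 1, triangle for library 2, lines for means of 2 libraries). WT 1 is the highest library in each gate, with 157 CPM in all macrophages.

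Ccl6 was the member that passed in the macrophage gate, at a higher level in KO. Its macrophage level was 1861, 1659, 2649 and 3290 CPM, from 123538 to 269160 UMIs per library. Both KO libraries were above both WT libraries, with means of 1760 ± 143 in WT and 2970 ± 453 in KO (SD, n = 2 each), a 1.69-fold difference. The log2 change was 0.88 ± 0.13 (edgeR's quasi-likelihood test, adjusted p = 0.0157). It kept its size but not the threshold without WT 1 (0.94, adjusted p = 0.0574) or WT 2 (0.85, adjusted p = 0.0527). Of the 5 members tested in macrophages Ccl6 alone passed, 1 of 5, beside 6.86% of all 12742 genes called there in either direction and 4.46% called higher. Under total-count scaling the all-gene median of the log2 change went from -0.02 to -0.14 and the calls from 568 higher and 306 lower to 452 higher and 735 lower, and Ccl6 was then 0.75 (adjusted p = 0.0248). A Ccl6 UMI was seen in 91.3%, 90.3%, 89.4% and 94.3% of macrophages, and in 65.5%, 58.0%, 69.7% and 76.0% of thinned ones. T cells gave 21.3%, 16.1%, 34.5% and 33.8% when thinned and 28.9%, 28.7%, 48.6% and 56.0% unthinned, also higher in both KO libraries. The parts of free RNA and of the gate's make-up in the macrophage result were not tested. Shares of some subsets are given next.

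Ccl6 was measured in 9 macrophage subsets. The subsets overlap, since a cell can carry the markers of more than 1, and their shares of macrophages differed: Arg1 and Inhba 13.4%, 13.5%, 42.0% and 45.3%, Cxcl9 4.49%, 10.6%, 40.3% and 39.2%, and Fcrls and Cx3cr1 29.2%, 29.6%, 4.34% and 5.92%. By the median of 4 libraries Ccl6 was highest in macrophages with Mmp12 and Mmp13, matrix metalloproteinase genes, at 3467, 3359, 4631 and 5314 CPM, and lowest in those with Fcrls and Cx3cr1, at 1076, 852, 1243 and 1711 CPM. It passed in 7 of 9 subsets, higher in KO in each, beside 4.04% of gene tests called higher over the 9 gates, and in each of the 7 both KO libraries exceeded both WT libraries.

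Macrophages with Cxcl9, an interferon-induced chemokine gene, had the largest log2 change of Ccl6, 1.84 ± 0.28, from 1046, 579, 2291 and 2870 CPM (edgeR adjusted p = 0.0221, 6.5% of genes called and 4.25% called higher). It lost the threshold in 2 of 12 alternatives, with no filter among them (1.86, adjusted p = 0.106), and ran from 1.29 to 2.30 over the 12. Those with no Cxcl9 UMI had 1929, 1916, 3126 and 3762 CPM and a change of 0.96 ± 0.13 (edgeR adjusted p = 0.00527, 9.35% called and 5.42% higher), so the gate level was higher in KO on both sides of that marker. Cells with Arg1 and Inhba numbered 629, 654, 1891 and 1163 of the 4723, 4612, 4570 and 2606 macrophages with no Cxcl9 UMI. The part of this shift in the result was not tested. Cycling macrophages, with at least 3 of Mki67, Top2a, Stmn1, Ube2c and Birc5, had 1017, 979, 2666 and 2563 CPM, a 2.62-fold difference of means with a log2 change of 1.54 ± 0.11 (edgeR adjusted p = 4.84e-05, 9.79% called and 6.31% higher). The Chil3 and Fn1 subset had 1832, 1782, 2958 and 3819 CPM and a change of 1.04 ± 0.15 (edgeR adjusted p = 0.0056, 8.18% called and 5.54% higher). In the last 3 subsets the call held in each of the 12 alternatives run. The C3 and Vcam1 subset had 1122, 646, 1825 and 2855 CPM and a change of 1.61 ± 0.29 (edgeR adjusted p = 0.0336, 2.93% called and 2.29% higher), which lost the threshold in 5 of 12 alternatives, among them without WT 1 (2.00, adjusted p = 0.0566) or WT 2 (1.30, adjusted p = 0.102), with total counts (1.41, adjusted p = 0.11) and in thinned cells (0.66, adjusted p = 0.331).

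The 3 subsets with the highest WT levels of Ccl6 had log2 changes of 0.18 to 0.57. The change was 0.57 ± 0.10 in the Mmp12 and Mmp13 subset (edgeR adjusted p = 0.0154, 5.66% called and 3.36% higher), and 0.47 without KO 2 (adjusted p = 0.113). It was 0.38 ± 0.13 in the Arg1 and Inhba subset, at 2971, 3129, 3385 and 4113 CPM (edgeR adjusted p = 0.122, 6.6% called), where the groups did not overlap. In the Lyve1, Cd163 or Cd209f subset it was 0.18 ± 0.16, at 2463, 2514, 3047 and 2308 CPM with overlapping groups (edgeR adjusted p = 0.767, 2.07% called). The Fcrls and Cx3cr1 subset, with the lowest level, had a change of 0.70 ± 0.16 (edgeR adjusted p = 0.0335, 4.26% called and 2.82% higher), lost in 5 of 12 alternatives, among them without WT 2 (0.58, adjusted p = 0.0899) or KO 2 (0.46, adjusted p = 0.161), with total counts (0.62, adjusted p = 0.105) and in thinned cells (0.37, adjusted p = 0.561). Whether the change differed between overlapping subsets was not tested.

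Ccl9, the neighbour of Ccl6, followed it with smaller changes. Its macrophage level was 613, 583, 692 and 706 CPM, with no overlap and means of 598 ± 20.9 in WT and 699 ± 9.85 in KO (SD, n = 2 each), a ratio of 1.17. The log2 change of 0.35 ± 0.09 missed the threshold (edgeR adjusted p = 0.0657) and passed with DESeq2 (0.36, adjusted p = 0.000997) and with 1 more marker required (0.41, adjusted p = 0.0432). A Ccl9 UMI was seen in 89.5%, 89.6%, 80.5% and 84.8% of macrophages, or 60.2%, 56.8%, 56.0% and 59.6% when thinned, so the share of positive cells was not higher in KO. Of macrophages with a Ccl6 UMI, 91.9%, 92.2%, 83.9% and 86.9% also had Ccl9, against 64.0%, 66.0%, 51.6% and 50.6% of those without.

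Ccl9 passed in 4 of 9 macrophage subsets, higher in KO in all 4, beside 4.04% of gene tests called higher over the 9 gates. The Cxcl9 subset had 442, 324, 617 and 607 CPM and a change of 0.85 ± 0.14 (edgeR adjusted p = 0.0162, 6.5% of genes called), lost without WT 2 (0.66, adjusted p = 0.0524). Macrophages with no Cxcl9 UMI had 627, 640, 775 and 817 CPM and a change of 0.44 ± 0.10 (edgeR adjusted p = 0.0331, 9.35% of genes called), lost without WT 1, KO 1 or KO 2 (0.39, 0.48 and 0.40, adjusted p = 0.0975, 0.0652 and 0.0962), with total counts (0.33, adjusted p = 0.0523) and in thinned cells (0.31, adjusted p = 0.178). In both, the KO libraries were above the WT libraries. Cycling macrophages had 474, 406, 548 and 514 CPM and a change of 0.42 ± 0.10 (edgeR adjusted p = 0.03, 9.79% of genes called), lost without WT 2 or KO 1 (0.34 and 0.36, adjusted p = 0.0857 and 0.185), with total counts (0.27, adjusted p = 0.108) and in thinned cells (0.35, adjusted p = 0.305). The Chil3 and Fn1 subset had 598, 520, 680 and 719 CPM and a change of 0.45 ± 0.12 at the threshold (edgeR adjusted p = 0.0499, 8.18% of genes called). It was lost in 7 of 12 alternatives, with any 1 library left out (0.41 to 0.52, adjusted p = 0.0883 to 0.194), with total counts (0.32, adjusted p = 0.11), in thinned cells (0.20, adjusted p = 0.701) and with cells of more than 1 lineage kept (0.43, adjusted p = 0.0616). Like Ccl6, Ccl9 was highest in macrophages with Mmp12 and Mmp13, at 869, 885, 1015 and 1035 CPM, without passing there (0.25 ± 0.09, edgeR adjusted p = 0.143).

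**Figure D5:**
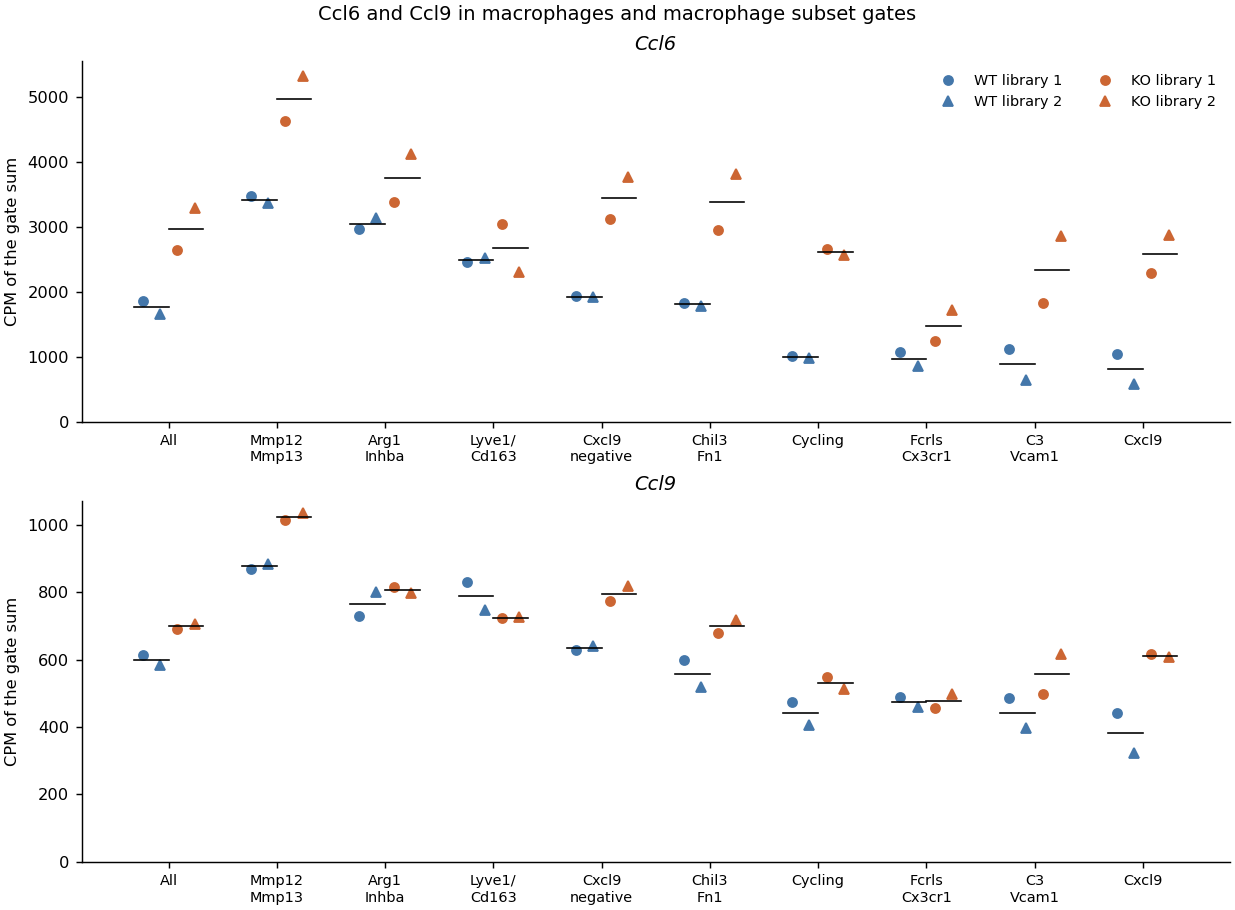
Ccl6 (top) and Ccl9 (bottom) in all macrophages and 9 overlapping subset gates, as CPM of the gate sum from 0, by library (WT blue, KO orange, circle for library 1, triangle for library 2, lines for means of 2 libraries). KO points of Ccl6 are above WT points in every gate but the Lyve1, Cd163 or Cd209f one, where KO 2 is lowest at 2308 CPM.

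In monocytes both genes were lower in the KO libraries, and Ccl6 passed. Ccl6 was at 1928, 1354, 933 and 1038 CPM there, lower in both KO libraries, with a log2 change of -0.69 ± 0.16 that passed by a narrow margin (edgeR adjusted p = 0.0498). The call was lost in 8 of 12 alternatives, among them without WT 1 (-0.45, adjusted p = 0.254), KO 1 (-0.64, adjusted p = 0.293) or KO 2 (-0.73, adjusted p = 0.159), and with 1 more marker required the change was -0.21 (adjusted p = 0.676). Ccl9 was at 505, 510, 369 and 361 CPM, also lower in both KO libraries (-0.43 ± 0.12, edgeR adjusted p = 0.0886). The 6 monocyte markers summed to 3042, 2713, 4582 and 4283 CPM in this gate, higher in KO, and the part of the gate's make-up in the result was not tested. The test of the difference, macrophage minus monocyte, gave 1.55 ± 0.22 for Ccl6 (edgeR adjusted p = 0.0996) and 0.76 ± 0.13 for Ccl9 (edgeR adjusted p = 0.163), and 0 of 12840 genes, 0%, passed it. Of the 5 members tested in monocytes, 1 was higher and 1 lower, beside 2.59% of all genes higher and 1.16% lower, 3.75% in all. Over the macrophage and monocyte gates, 13 of 54 tests of a member were higher in KO and 2 lower, beside 3.97% and 2.17% of all gene tests in the same gates, and these tests share cells.

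Outside these cells, Ccl6 was highest in neutrophils, at 4019, 3218, 2508 and 3577 CPM, a range that overlapped that of macrophages. The test of macrophage minus cDC2 gave 1.18 ± 0.28 for Ccl6 (edgeR adjusted p = 0.267) and was passed by 0.0325% of genes. Neutrophils, with 118, 67, 252 and 56 cells, had overlapping groups and were not tested. In cDC2, Ccl6 was at 359, 254, 280 and 207 CPM (-0.32 ± 0.19, edgeR adjusted p = 0.497, and -0.61 without KO 1, adjusted p = 0.0467), and Ccl9 at 124, 99.9, 125 and 148 CPM (0.27 ± 0.18, edgeR adjusted p = 0.551). In migratory dendritic cells Ccl6 was at 86.6, 106, 201 and 141 CPM and Ccl9 at 104, 71.0, 47.6 and 64.0, so Ccl6 was higher and Ccl9 lower in both KO libraries. Their changes were 0.82 ± 0.24 (edgeR adjusted p = 0.109) and -0.67 ± 0.29 (edgeR adjusted p = 0.342). The former passed without WT 2 (1.04, adjusted p = 0.0314) or KO 2 (1.09, adjusted p = 0.00171) and was 0.00 in thinned cells (adjusted p = 0.999). Macrophage markers summed to 416, 555, 1240 and 835 CPM in these cells, and their part in the result was not tested.

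T cells carried low levels of both myeloid chemokines. CD8 T cells numbered only 30 and 88 in WT 1 and WT 2, against 984 and 413 in KO 1 and KO 2. In these cells Ccl6 was at 132, 100, 263 and 210 CPM, higher in both KO libraries, with a log2 change of 1.19 ± 0.21 (edgeR adjusted p = 0.00689, 1.4% of genes called and 1.17% higher). It was 1.03 without WT 2 (adjusted p = 0.184), 1.01 without KO 1 (adjusted p = 0.0609) and 0.32 in thinned cells (adjusted p = 0.763). The 11 macrophage markers summed to 616, 528, 1932 and 1010 CPM in CD8 T cells, in the same order of the groups. In all T cells Ccl6 was at 236, 118, 260 and 214 CPM with overlapping groups (0.61 ± 0.33, edgeR adjusted p = 0.588), and 1.13 without WT 1 (adjusted p = 0.00458), 0.74 without KO 2 (adjusted p = 0.0183) or 0.94 in thinned cells (adjusted p = 0.000108). In regulatory T cells it was at 132, 120, 186 and 212 CPM (0.67 ± 0.19, edgeR adjusted p = 0.339), and 1.95 in thinned cells (adjusted p = 0.000569). Macrophage markers there summed to 542, 772, 2100 and 1072 CPM, and the part of macrophage RNA in these results was not tested.

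Ccl9 in regulatory T cells ran against those markers, at 149, 126, 52.8 and 52.2 CPM. Both WT libraries were above both KO libraries, with a log2 change of -1.37 ± 0.23 (edgeR adjusted p = 0.0117, 0.327% of genes called and 0.104% lower). The WT level rested on 3 and 2 cells with at least 10 UMIs, and the most positive 5% of cells held 86.6% and 82.7% of it. The KO libraries had no such cell. The call was lost in 4 of 12 alternatives, among them with DESeq2 (-1.39, adjusted p = 0.169), in thinned cells (-0.78, adjusted p = 0.641) and with 1 more marker required (-0.60, adjusted p = 0.776). Ccl9 in CD8 T cells was at 77.8, 43.0, 112 and 78.3 CPM (0.97 ± 0.30, edgeR adjusted p = 0.171) and in all T cells at 114, 80.2, 98.2 and 73.7 (0.02 ± 0.19, edgeR adjusted p = 0.991). The former passed without KO 2 (1.19, adjusted p = 0.0227), and the latter was -0.22 without WT 2 and -0.24 without KO 1. Over the T cell gates, 9 tests of a member gave 1 higher and 1 lower, beside 1.02% and 0.418% of all gene tests there, and in all T cells 0 of 4 passed beside 2.24% of genes.

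Ccr1, the receptor of CCL6 and CCL9, was at 351, 280, 324 and 344 CPM in macrophages (0.21 ± 0.11, edgeR adjusted p = 0.298) and was called in none of the gates tested. Ccr3, the receptor of CCL24, was at 0.316, 0.333, 0.179 and 0.159 CPM in macrophages and at 8.92, 12.5, 18.1 and 29.6 CPM in regulatory T cells (1.09 ± 0.54, edgeR adjusted p = 0.827).

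Ccr4, the receptor of CCL17 and CCL22, rested on few UMIs: 12, 26, 35 and 33 in all kept cells of a library. T cells held 91.7%, 88.5%, 71.4% and 63.6% of them. In monocytes, cDC2, migratory dendritic cells and neutrophils there were 0 UMIs in 1545, 404, 304 and 493 cells, which allows shares of cells with a UMI of up to 0.194%, 0.743%, 0.987% and 0.609%, counting error only. In T cells Ccr4 was at 11.6, 14.4, 4.3 and 6.04 CPM, from 11, 23, 25 and 21 UMIs, and both KO libraries were below both WT libraries. The log2 change of -1.25 ± 0.37 did not pass (edgeR adjusted p = 0.132), and in thinned cells it was -1.74 (adjusted p = 0.0298). Within regulatory T cells, defined by Foxp3, the level was 15.6, 21.8, 18.1 and 15.7 CPM, the groups overlapped, and the change was -0.17 ± 0.49 (edgeR adjusted p = 0.993), or 0.14 without WT 2. CD8 T cells had 0, 0, 1 and 0 Ccr4 UMIs. Regulatory T cells made up 45.4%, 37.5%, 10.8% and 16.1% of the T cell gate and CD8 T cells 13.8%, 26.8%, 62.5% and 54.9%. The part of this shift in the lower Ccr4 level of the whole T cell gate was not tested.

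Across 32 sums of 10 exclusive gates by library, the Pearson correlation of log2(CPM + 1) was 0.799 between Ccl17 and Ccl22 and 0.836 between Ccl6 and Ccl9. These are descriptions, since the sums of a gate or a library are not independent. Among 11308 genes the pattern of Ccl17 was most like that of Batf3 (0.909), a transcription factor gene of dendritic cells, then Fnbp1l (0.889) and Zfp366 (0.88), which encodes the dendritic regulator DC-SCRIPT. Ccl22 was most like Ramp3 (0.923), Adam23 (0.906) and Strip2 (0.895). Ccl6 was most like Cd14 (0.954), Fcgr3 (0.933) and Itgam (0.931), which encode myeloid surface receptors, and Ccl9 most like Adam15 (0.913), Fcgr2b (0.9) and Trem2 (0.897). Ccl24 had weaker matches, Flt1 (0.759), Myo7a (0.752) and Lpl (0.744), and Ccr4 matched the sparse genes Fam83g (0.994), Igsf9b (0.993) and Dynlt5 (0.992).

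Other CC chemokine genes and the genes that act around these members were taken from lists. Of 12 other CC chemokine genes tested in macrophages, 3 were higher and 0 lower, where 6.86% of all genes were called and 4.46% called higher, with a median log2 change of 0.78 beside -0.02 for all genes: Ccl4 (1.75), Ccl3 (0.94) and Ccl2 (0.86). Of 9 receptor genes, Ccr7 (2.16, at most 2.93 CPM) and Ccrl2 (0.76) were higher and Ccr2 (-1.11) was lower, with a median of 0.21. The list of the IL-4 and IL-13 axis and regulators of Ccl17 and Ccl22 had 3 higher and 1 lower of 16, with a median of 0.26. Il2rg (1.24), the shared cytokine receptor chain, Nfkb2 (0.66) and Csf2 (4.05, at most 0.831 CPM) were higher, and Irf4 (-1.08), a transcription factor of cDC2 and alternatively activated macrophages, was lower. Irf4 in migratory dendritic cells, at 53.5, 46.4, 19.5 and 18.7 CPM, was also lower in both KO libraries without passing (-1.39 ± 0.37, edgeR adjusted p = 0.0796). Of 17 genes of alternative activation, Pdcd1lg2 (1.71) was higher and Cd209f (-3.37) lower, with a median of -0.62.

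In monocytes Ccl4 (1.497) was the 1 of 9 other chemokine genes to pass and Ccrl2 (0.75) the 1 of 5 receptor genes, where 3.75% of all genes passed. Il2rg (0.96), Nfkb2 (0.83), Kdm6b (0.67) and Rel (0.65) were higher among 14 genes of the IL-4 and IL-13 list, whose median was 0.55 beside -0.01 for all genes. Of 12 alternative activation genes, Pdcd1lg2 (1.69) was higher and Fn1 (-1.501) and Arg1 (-0.90) were lower, with a median of -0.12. In cDC2 the chemokine genes Ccl7 (1.81), Ccl8 (1.77) and Ccl2 (1.51) were higher of 7, Ccr2 (-0.68) was lower of 7 receptor genes, and 0 of 14 and 0 of 10 passed in the other lists, beside 3.42% of all genes. In migratory dendritic cells Ccl4 (2.51) was higher of 7 chemokine genes and Arg1 (0.92) of 8 alternative activation genes, while 0 of 5 receptor genes and 0 of 14 genes of the IL-4 and IL-13 list passed, beside 1.51% of all genes. These values are log2 changes past edgeR's threshold of 0.05.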

How the data were processed

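Single-cell 3' RNA libraries of 4 samples were analysed. The authors deposited filtered matrices of whole-number UMI counts, which per the file headers came from Cell Ranger 5.0.0, while the submitters' processing notes name version 5.0.1 and mm10. The members and lists here were chosen with earlier results of these data known. Barcodes with under 200 genes or over 20% mitochondrial UMIs were left out. Cells entered 10 lineage gates by the number of markers with a UMI (7 of 11 for macrophages, 6 of 10 for migratory dendritic cells, 3 of 7 for cDC2, 3 of 6 for monocytes that passed no other gate, and 3 of 5 for T cells). The 7 cDC2 markers, Cd209a, Flt3, Zbtb46, Ltb, Klrd1, Tnip3 and Kit, were a part of longer lists for cDC2 and for all conventional dendritic cells. A UMI of Cd209a, Flt3 or Zbtb46 was also required. The numbers of markers required were chosen after looking at the data. A gate is a range, not a cell type. No doublet caller was run, and cells passing 2 lineages, 1.05% to 2.66% per library, were left out of the gates.

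Counts were summed per gate and library and fitted over all genes with edgeR 4.0.16 (quasi-likelihood, TMM, filterByExpr, Benjamini-Hochberg threshold 0.05) in R 4.3.3, where each library had at least 20 cells. Every fit compared the KO with the WT libraries of 1 gate, and differences between gates were interaction contrasts. The genes named are the 6 members, the listed pathway genes past the threshold with the receptors of the members, and the 3 genes most like each member. Alternatives were total-count scaling, DESeq2 1.42.0, no filter, a replicate block, each library left out, cells thinned to 2000 UMIs, 1 more marker per gate, cells of 2 lineages kept in, and 10% mitochondrial UMIs. For thinning, only cells with at least 2000 UMIs were used, and they were gated anew on the thinned counts. Replicate numbers were not shown to pair libraries. Shares and limits from counts of 0 (3 counts over the cells) cover counting error only. The scripts were tested on simulated data. Sums were made with Python 3.11.15, numpy 2.4.6, scipy 1.17.1 and pandas 2.3.3, and plots with matplotlib 3.10.9. The level of the targeted gene is not reported here.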

Additional observations from a re-analysis of the deposited data

How the results depend on the processing

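With 2 libraries per genotype, 1 library decides many calls, and dendritic and regulatory T cell values rest on 48 to 170 cells per library. CD8 T cell values rest on 30 and 88 cells in WT 1 and WT 2. The 17 results past the threshold kept their direction in all of 202 alternatives, but 54 of these no longer passed, and 3 results passed in each. Of 338 alternatives to 29 other results, 29 newly passed and 22 changed sign. Ccl22 and Ccl24 in the macrophage subsets, and Ccl17 in the subsets where it did not pass, were left out of this tally. Of the members' tests in macrophage and monocyte gates 15 passed, against 7 with thinned cells and 8 to 14 with a library left out. In dendritic gates 0 passed, against 1 with no filter, 1 with thinned cells, 1 with cells of 2 lineages kept, and 1 to 3 with a library left out. In T cell gates 2 passed, against 1 with DESeq2, 4 with no filter and 1 to 4 with a library left out. With thinned cells neither of these 2 passed, while Ccl6 in all T cells and in regulatory T cells and Ccr4 in all T cells did. The difference between gates passed for 0 members in every setting. Thinned cDC2 were not run, since the lowest library had 10 cells.

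Among the results in that tally, signs changed as follows on the log2 scale, the cause not being tested. With thinned cells Ccl6 in the Lyve1, Cd163 or Cd209f subset was -0.97 and Ccl9 in the C3 and Vcam1 subset -0.32. With 1 more marker required, Ccl9 in cDC2 was -0.68, Ccl22 in cDC2 -0.21, Ccl24 in monocytes 0.015 and Ccr4 in regulatory T cells 0.21. Ccl9 in T cells was -0.13 with total counts, -0.020 with DESeq2, -0.023 with the replicate block and -0.010 at 10% mitochondrial UMIs. With a library left out, Ccl6 in the Lyve1, Cd163 or Cd209f subset ran from -0.045 to 0.39 and Ccl9 in T cells from -0.24 to 0.24. Ccl17 then ran from -1.57 to 0.038 in macrophages, -1.70 to 0.050 in cDC2 and -1.95 to 0.18 in T cells. Ccl22 ran from -0.26 to 0.77 in cDC2 and -0.12 to 1.10 in macrophages, Ccl24 from -3.58 to 1.62 in macrophages and -1.99 to 0.16 in monocytes, and Ccr4 in regulatory T cells from -0.36 to 0.14.

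Deviations of libraries with the same number correlated at -0.139 to 0.163, so pairing was not shown. With the replicate block 13 of the macrophage and monocyte results, 0 dendritic and 3 T cell results passed. In monocytes 2 members passed without a block, 1 with the replicate block and 3 with crossed pairs, a setting chosen after seeing the data.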
